A study of Mus musculus with 23 samples.

Results

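DC2 cells, sorted as CD8lo CD172hi, were compared with DC1b cells, sorted as CD8int CD172+, from the spleens of untreated wild type Balb/C mice. Each population was sequenced from 2 pools of mice, numbered 1 and 2 in the sample labels, so the comparison rests on 4 of the 23 libraries of the series, chosen by their labels alone. The 4 libraries share the strain, the tissue and the batch, and neither population carries a transgene or another treatment. The labels give no age and do not say how many mice went into a pool. DC1a libraries (CD8hi CD172-) of the same 2 pools entered the fit so that the spread between duplicates was estimated from 3 populations. DC3 cells (CD8- CD172lo) and the pools of mice labelled TLI, most often short for total lymphoid irradiation, are used only where they are named. Cells of both gates were sorted from enriched CD11c+ spleen cells stained for CD11c, MHC class II, B220, CD8a and CD172a, and their cDNA was amplified with a kit for very small amounts of RNA.

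Dendritic cells take up antigen, carry it on MHC molecules and prime T cells. Conventional type 1 cells (cDC1) depend on the factors IRF8 and BATF3, carry CD8 and XCR1 in mouse spleen and are known for presenting taken-up antigen to CD8 T cells. Conventional type 2 cells (cDC2) depend on IRF4, carry the inhibitory receptor CD172a (SIRPα, gene Sirpa) and are known for priming CD4 T cells, while plasmacytoid cells (pDC) depend on the factor TCF4, carry B220 and Siglec-H and secrete type I interferon when their endosomal receptors meet viral nucleic acid. By their labels DC1b cells were CD8int and CD172+ and DC2 cells CD8lo and CD172hi, so both gates carried CD172a, at different levels. The study sorted these populations to compare their expression patterns.

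Estimated counts in the 4 libraries summed to between 19256447 and 25015091. At these totals a floor of 3 counts corresponded to 0.120 to 0.156 CPM, that is, counts relative to the library total. CPM given for genes are further scaled with edgeR's TMM factors. Amplified reads are not independent molecules, so such floors cover counting error only. On log2 CPM the DC2 libraries correlated across genes at r = 0.864 and the DC1b libraries at r = 0.885, against 0.807 to 0.809 for a DC2 with a DC1b library. Among well-expressed genes, 1589 were over 2-fold apart between the DC2 pools and 1467 between the DC1b pools, and the biological coefficient of variation was 0.868. The sorted receptors followed the labels. Cd8a had 137 and 371 CPM in DC1b and 0.592 and 0.386 CPM in DC2, and Sirpa had 12 and 86.6 CPM in DC1b and 245 and 182 CPM in DC2. Sirpa in DC1b pool 1 lay far below pool 2, but neither receptor overlapped between the populations. The defining dendritic cell integrin Itgax (CD11c) was present in all 4 libraries.

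Of 15785 genes tested, 45 (0.285%) passed an adjusted p of 0.05 in the quasi-likelihood test of edgeR, after Benjamini-Hochberg adjustment, of which 12 (0.076%) were higher and 33 (0.209%) lower in DC2. With the pool as a replicate block no gene passed (0 calls), and 1906 had an unadjusted p under 0.05, against 2297 without the block, 1063 higher (6.73%) and 1234 lower (7.82%). Leaving out DC1b pool 1 left 6 calls, and leaving out any other library of the fit left 0. Because much of the contrast lies in genes with almost no counts on one side, well-expressed genes were followed separately. These are the 6652 genes with at least 5 CPM in each of the 4 libraries. Such a gene was taken as separated when the lowest library of one population was at least 2 times the highest library of the other, a rule with no test. It was met by 358 genes higher (5.38%) and 198 lower (2.98%) in DC2, 506 of which also had an unadjusted p under 0.05. Each of the 26 well-expressed genes past the threshold was separated. The median log2 fold change (DC2 over DC1b) was -0.03 over all genes tested and 0.04 over the well-expressed ones.

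The 12 genes that rose in DC2 were all expressed in DC1b as well. The largest difference was in Mmp12, macrophage elastase (chromosome 9 from 7344381 to 7369499 of GRCm38), with 37.2 and 22.4 CPM in DC1b and 907 and 784 CPM in DC2, a log2 fold change of 4.83 ± 0.51 (SE) (edgeR adjusted p = 0.0482). Its reads may include some from Mmp1b, which overlaps it, and DC1a cells had 1.13 and 0.448 CPM. Abcg3, a member of the ATP-binding cassette transporter family (chromosome 5 from 104935057 to 104982718), had 15.3 and 21.7 CPM in DC1b and 337 and 264 CPM in DC2, a log2 difference of 4.02 ± 0.37 (SE). The lowest DC2 library was 21.1 times the highest DC1b library for Mmp12 and 12.2 times for Abcg3. Egr1, an immediate early transcription factor, had 21.7 and 37.3 CPM in DC1b and 304 and 324 CPM in DC2 (log2 fold change 3.41 ± 0.36 (SE)).

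Surface proteins made up another group of these calls. Cd274 encodes PD-L1, the ligand through which T cells are inhibited by PD-1 (chromosome 19 from 29367455 to 29388095). It had 29.9 and 27.8 CPM in DC1b and 223 and 198 CPM in DC2, and its log2 fold change was 2.87 ± 0.30 (SE). Cd86, a costimulatory ligand of CD28 and CTLA-4 (chromosome 16 from 36603869 to 36666081), had 167 and 161 CPM in DC1b and 702 and 883 CPM in DC2 (log2 fold change 2.27 ± 0.21 (SE), edgeR adjusted p = 0.0382). Itgax (chromosome 7 from 128129547 to 128150657) had 68 and 89.2 CPM in DC1b and 465 and 494 CPM in DC2, a log2 fold change of 2.61 ± 0.25 (SE). For the 3 genes the duplicates of a population lay close together and the populations did not overlap, while DC1a cells lay between them with 53.1 and 37.8 CPM of Cd274, 485 and 462 CPM of Cd86 and 186 and 163 CPM of Itgax.

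Regulators of small GTPases and of G-protein signals were the other named group. Tbc1d4, a Rab GTPase-activating protein (chromosome 14 from 101442360 to 101609191), had 276 and 253 CPM in DC1b and 1689 and 1612 CPM in DC2, a log2 fold change of 2.64 ± 0.20 (SE) with the lowest adjusted p of the 12 (edgeR adjusted p = 0.0284). Rab43, a small GTPase of membrane traffic whose locus overlaps the predicted gene Gm45140, had 37.7 and 42 CPM in DC1b and 248 and 277 CPM in DC2. Rgs1, which switches off signals of G-protein-coupled receptors, had 282 and 281 CPM in DC1b and 1459 and 1062 CPM in DC2 (log2 fold change 2.16 ± 0.23 (SE)). DC1a cells lay between the populations, with 185 and 179 CPM of Rab43 and 628 and 695 CPM of Rgs1. The remaining 3 were Tmem131l (51.6 and 75.7 CPM in DC1b and 396 and 455 CPM in DC2), the predicted gene Gm6377, which overlaps Sh3bgrl (489 and 489 CPM in DC1b and 2186 and 1719 CPM in DC2), and ENSMUSG00000029333, an identifier without a symbol in the annotation (64.9 and 69.8 CPM in DC1b and 383 and 491 CPM in DC2).

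The 15 widest separations upwards held Mmp12, Abcg3, Egr1 and 12 genes that did not pass the threshold, so those are given as levels. Tgm2, transglutaminase 2, had 18 and 15.1 CPM in DC1b and 207 and 254 CPM in DC2 and 0.685 and 0.179 CPM in DC1a. Clec4a4, the lectin DCIR2 used as a cDC2 marker, had 20.1 and 6.85 CPM in DC1b and 289 and 226 CPM in DC2 and no count in DC1a. Ptgs2, the inducible cyclooxygenase of prostaglandin synthesis, had 14 and 17.2 CPM in DC1b and 125 and 138 CPM in DC2. The lowest DC2 library of each was at least 7.27 times the highest DC1b library. The signalling proteins among them included Ppp1r14a, an inhibitor of protein phosphatase 1 (9.19 and 9.28 CPM in DC1b and 89.5 and 106 CPM in DC2), Plk3, a stress-induced kinase (12.9 and 5.1 CPM in DC1b and 110.3 and 121 CPM in DC2), and Arhgef2, an exchange factor for RhoA (13.1 and 7.84 CPM in DC1b and 108 and 159.8 CPM in DC2). Asb2, which recruits targets to a ubiquitin ligase, had 11.8 and 8.22 CPM in DC1b and 104 and 143 CPM in DC2. Neurl3, a ubiquitin ligase, had 6.29 and 20.4 CPM in DC1b and 144 and 323 CPM in DC2. Ggta1, Bex6, Gm2396 and 9530059O14Rik made up the rest. Plk3, Arhgef2 and Tgm2 overlap other annotated genes, and whether strand was used in counting is not given, so their levels may hold reads of those neighbours.

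**Figure D1:**
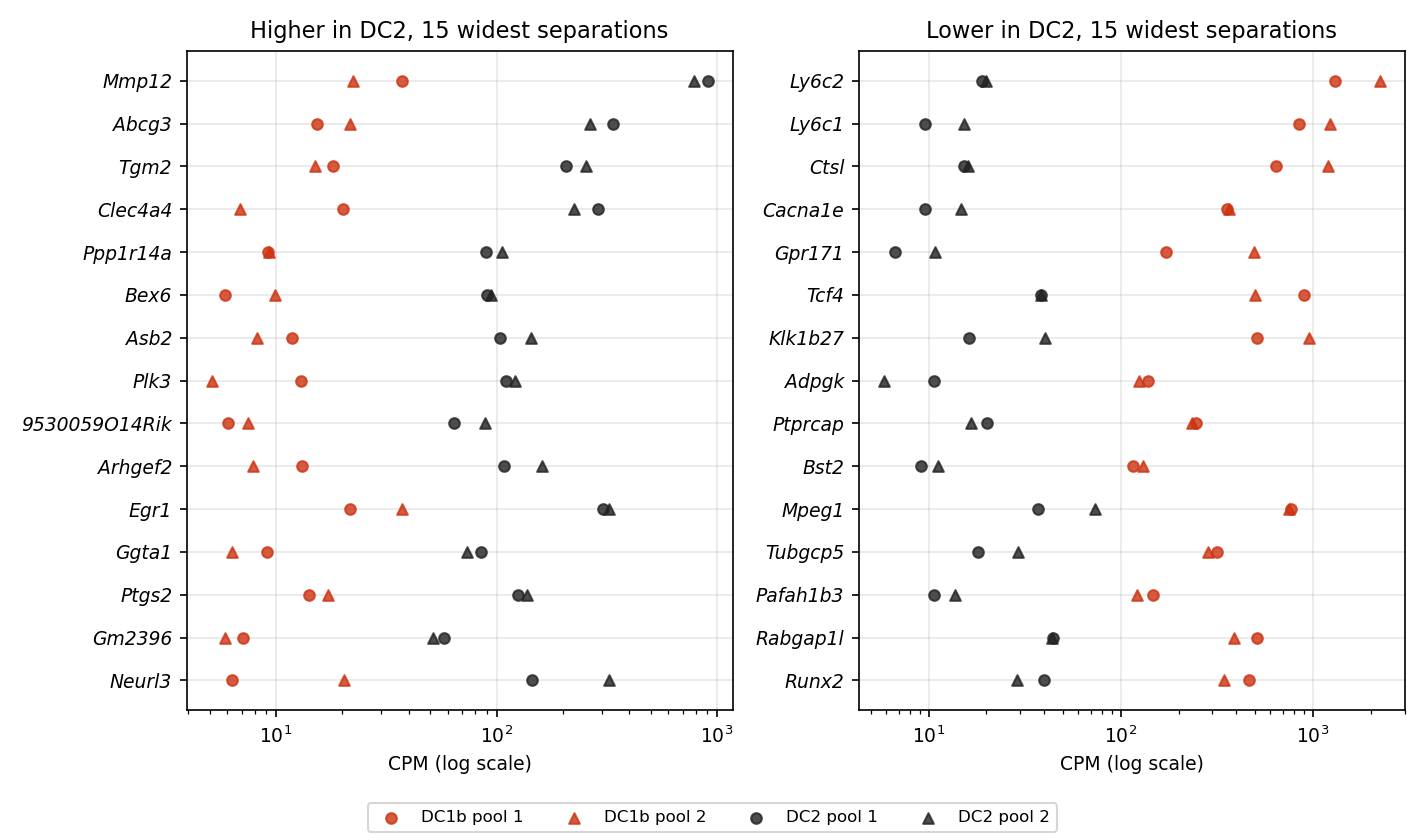
CPM (log axis) in each library for the 15 well-expressed genes with the widest separation in each direction; red marks DC1b, black DC2, circles pool 1 and triangles pool 2. In every row both DC2 points lie on one side of both DC1b points, as for Mmp12 (907 and 784 against 37.2 and 22.4 CPM) and Ly6c2 (19.0 and 19.9 against 1301 and 2233 CPM).

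The 14 well-expressed genes that fell in DC2 had log2 fold changes from -6.51 to -2.02. Ly6c2 and Ly6c1, the genes of the surface antigen Ly6C, fell most. Ly6c2 (chromosome 15 from 75108158 to 75111970) had 1301 and 2233 CPM in DC1b and 19 and 19.9 CPM in DC2 (log2 fold change -6.51 ± 0.46 (SE), edgeR adjusted p = 0.0235) and Ly6c1 had 847 and 1227 CPM in DC1b and 9.59 and 15.2 CPM in DC2 (log2 fold change -6.39 ± 0.42 (SE)). The 2 genes are near-identical copies, so how reads were divided between them is uncertain. Ctsl, the lysosomal protease cathepsin L (chromosome 13 from 64359337 to 64370890), had 642 and 1199 CPM in DC1b and 15.4 and 16 CPM in DC2, a log2 fold change of -5.87 ± 0.52 (SE) (edgeR adjusted p = 0.0382).

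Cacna1e, the pore subunit of a voltage-gated calcium channel (chromosome 1 from 154390731 to 154884501), had 356 and 366 CPM in DC1b and 9.55 and 14.7 CPM in DC2 (log2 fold change -4.90 ± 0.33 (SE)). Mpeg1, the pore-forming protein perforin-2 of phagocytes (chromosome 19 from 12460779 to 12465283), had 771 and 749 CPM in DC1b and 36.9 and 73.7 CPM in DC2 (log2 fold change -3.78 ± 0.38 (SE)). Both also stood lower in DC2 than in DC1a, where Cacna1e had 95.6 and 106 CPM and Mpeg1 820.1 and 831 CPM. Lgals1, the galactose-binding lectin galectin-1 (chromosome 15 from 78926725 to 78930465), had 1199 and 1683 CPM in DC1b and 154 and 157 CPM in DC2, a log2 fold change of -3.21 ± 0.24 (SE) (edgeR adjusted p = 0.0294). Clec12a, an inhibitory lectin receptor (chromosome 6 from 129342691 to 129365303), had 1118 and 1464 CPM in DC1b and 230.3 and 165 CPM in DC2 (log2 fold change -2.71 ± 0.27 (SE)). All of these genes stayed far above the floor in DC2.

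Others of the 14 act inside the cell. Pum2, an RNA-binding repressor of translation, had 145 and 114 CPM in DC1b and 10.7 and 14.9 CPM in DC2. Pafah1b3, a catalytic subunit of a platelet-activating factor acetylhydrolase, had 147 and 122 CPM in DC1b and 10.6 and 13.7 CPM in DC2. Rpl31, a protein of the large ribosomal subunit, had 893 and 973 CPM in DC1b and 234 and 225 CPM in DC2, the smallest of these differences at a log2 fold change of -2.02 ± 0.18 (SE), and overlaps Tbc1d8. Dap (253 and 318 CPM in DC1b and 32 and 26.1 CPM in DC2), Rabgap1l (511 and 390.2 CPM in DC1b and 44.6 and 44.1 CPM in DC2), Ptprcap (248 and 236 CPM in DC1b and 20.1 and 16.5 CPM in DC2) and Tcf4 complete the group. Rabgap1l and Ptprcap overlap other genes. Without a call but among the 15 widest separations downwards were Gpr171, a G-protein-coupled receptor (171 and 491 CPM in DC1b and 6.71 and 10.8 CPM in DC2), Adpgk, an ADP-dependent glucokinase that overlaps Bbs4 (139 and 125 CPM in DC1b and 10.6 and 5.84 CPM in DC2), Tubgcp5, a part of the complex that nucleates microtubules (316 and 284 CPM in DC1b and 18.1 and 29.2 CPM in DC2), and Klk1b27, a kallikrein of a family of near copies (510.0 and 955 CPM in DC1b and 16.2 and 40.3 CPM in DC2).

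The other 19 genes that fell were near absent in DC2, with under 11 CPM in both libraries. In Mctp2, A530030E21Rik, Gstp2 and Clec4b2 both DC2 libraries were at or under the floor of 3 counts, so a fold is only a lower bound there. The remaining 15 were Clec9a, Gcsam, Cd8a, Naaa, Cox6a2, Cd300c, Spib, Blnk, Gm21762, D13Ertd608e, Pml, Klhl6, Sla2, Cmah and Ly6a. Gm21762 and D13Ertd608e are near-identical copies, Gstp2 shares sequence with Gstp1, and Cox6a2, Pml and Sla2 overlap other genes.

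**Figure D2:**
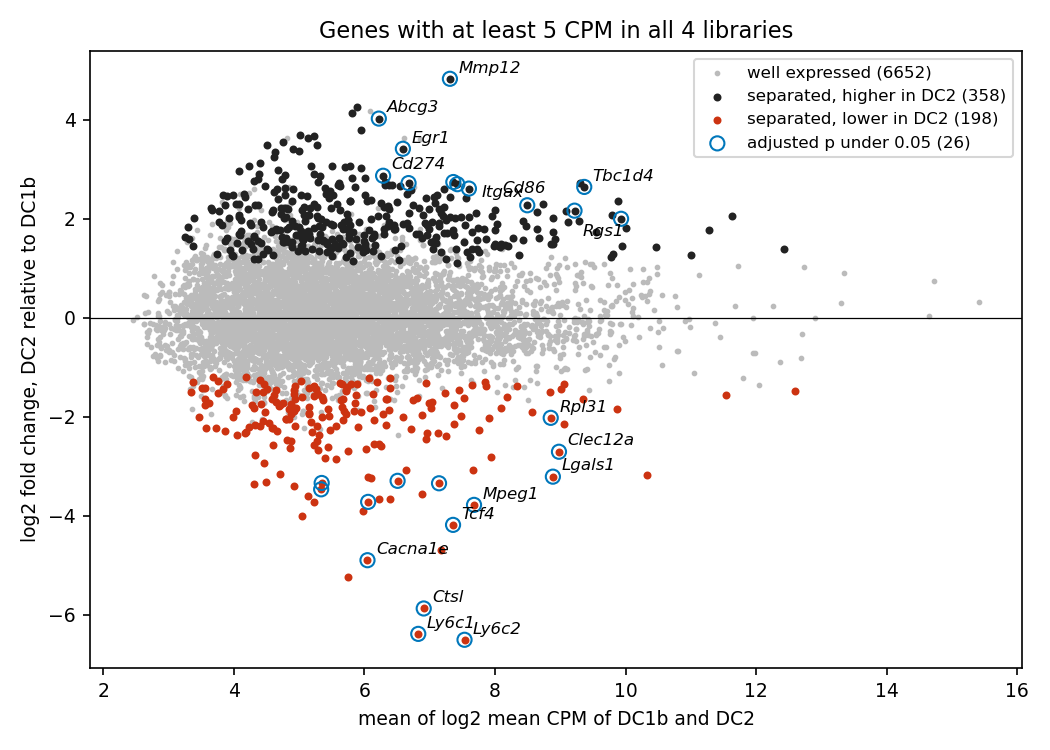
Log2 fold change of DC2 relative to DC1b against the mean of the log2 CPM of both populations for the 6652 well-expressed genes. Black and red points are the 358 and 198 separated genes, and blue rings mark the 26 with an adjusted p under 0.05, from Mmp12 at 4.83 to Ly6c2 at -6.51.

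The counts of list members from here on stand beside 6.73% of all genes tested higher and 7.82% lower at an unadjusted p under 0.05. Separated members come from the well-expressed genes, of which 5.38% were separated higher and 2.98% lower. The cDC1 identity list had members on both sides. Of its 28 genes, 4 fell past the threshold, 16 were lower and 3 higher at an unadjusted p under 0.05, and the median log2 fold change was -1.87, but -0.10 over its 15 well-expressed members. Clec9a, the receptor for actin of dead cells (chromosome 6 from 129408862 to 129424763), had 221 and 199 CPM in DC1b and 1.03 and 1.54 CPM in DC2 (log2 fold change -7.36 ± 0.33 (SE), edgeR adjusted p = 0.023). Its locus overlaps Clec1b. Naaa, a lipid amidase, had 138 and 148 CPM in DC1b and 4.85 and 10.7 CPM in DC2, and Gcsam, a signalling adaptor, had 76.9 and 55.1 CPM in DC1b and 0.0789 and 0.193 CPM in DC2. Together with Cd8a these 4 were lower in DC2 than in both DC1b and DC1a.

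Irf8, the factor on which cDC1 depend, had 948 and 833 CPM in DC1b and 1.58 and 32.9 CPM in DC2. The 2 DC2 libraries differed widely and the gene did not pass the threshold (log2 fold change -5.70 ± 1.40 (SE), edgeR adjusted p = 0.174), although the populations did not overlap. Xcr1, the chemokine receptor of cDC1, was separated lower with 98.3 and 66 CPM in DC1b and 16.8 and 24 CPM in DC2, and so were Ppt1, Btla, Ifi205 and Cxcl9. In the opposite direction, Batf3, the partner of IRF8 in cDC1, had 44.7 and 39.7 CPM in DC1b and 163 and 129 CPM in DC2 (log2 fold change 1.79 ± 0.26 (SE), edgeR adjusted p = 0.0807). Wdfy4, which acts in cross-presentation, had 55.7 and 80.7 CPM in DC1b and 265 and 205 CPM in DC2, and Havcr2, the receptor TIM-3, had 133 and 112 CPM in DC1b and 363 and 489 CPM in DC2. All 3 were separated higher in DC2 without passing the threshold. DC1a cells had 352 and 282 CPM of Batf3 and 493 and 424 CPM of Wdfy4, above both DC2 libraries. Havcr2 had 222 and 328 CPM in DC1a, between DC1b and DC2. Summed over the list, levels were 4424 and 5048 CPM in DC1b and 2219 and 2094 CPM in DC2, against 15515 and 14476 CPM in DC1a. Less RNA of these genes per cell and fewer cells that express them cannot be told apart in sorted bulk samples, here and for the lists that follow.

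Of 29 cDC2 identity genes tested, 8 were higher and 2 lower at an unadjusted p under 0.05, 5 were separated higher, and the median log2 fold change was 0.94. The separated members were Sirpa, Clec4a4, Clec4a2, Ltb and Tnfrsf11a. Clec4a2, an inhibitory lectin, had 37.5 and 37.1 CPM in DC1b and 261 and 209 CPM in DC2. The list's only call ran downwards and was Clec12a. Irf4, the factor on which cDC2 depend, had 64.6 and 82.7 CPM in DC1b and 33.9 and 155 CPM in DC2, with the DC1b libraries inside the range of the DC2 libraries. Cd4 had 130.1 and 150.3 CPM in DC1b and 119 and 28.4 CPM in DC2 and lay lower in both DC2 libraries, in pool 1 by a narrow margin. Lyz2, lysozyme of myeloid cells, had 1696 and 3015 CPM in DC1b and 5215 and 4449.6 CPM in DC2 (log2 fold change 1.04 ± 0.30 (SE), edgeR adjusted p = 0.218). Summed over all 30 genes listed, levels were 5678 and 8676 CPM in DC1b, 10544 and 9211 CPM in DC2 and 1944 and 2031 CPM in DC1a.

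Receptors that were stained in the study stood as follows. Cd1d1, which presents lipids to NKT cells, had 74.8 and 62.5 CPM in DC1b and 46.4 and 30.7 CPM in DC2 (log2 fold change -0.83 ± 0.31 (SE), edgeR adjusted p = 0.318). Itgam (CD11b) had 3.19 and 2.4 CPM in DC1b and 28.8 and 33.2 CPM in DC2, and Cd40, the receptor for T-cell help, had 33 and 13.7 CPM in DC1b and 97.1 and 76.5 CPM in DC2. Each of the 3 was without overlap and without a call. The RNA of Itgae (CD103) was near the floor in all 4 libraries, with 0 and 1.03 CPM in DC1b and 0.355 and 0 CPM in DC2, and Timd4 was detected in DC2 pool 2 alone. Ly75 (CD205) had 17.2 and 46.8 CPM in DC1b and 32.5 and 27.1 CPM in DC2 and overlapped, and Cd24a had 51 and 112 CPM in DC1b and 2.17 and 76.8 CPM in DC2 with a gap between the DC2 pools that spanned the DC1b pool 1 level. Cd207 (langerin), with 167 and 169 CPM in DC1b and 0.552 and 0 CPM in DC2, and Cdh1 (E-cadherin), with 36.8 and 33.2 CPM in DC1b and 0.0789 and 0.0965 CPM in DC2, were close to absent in DC2 and missed the threshold (edgeR adjusted p = 0.057 and 0.0725).

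The pDC identity list, chosen like the others with earlier results of these data known, was lower in DC2. All 36 of its genes had a fitted log2 fold change below 0, 29 at an unadjusted p under 0.05, and 8 fell past the threshold (Mctp2, Cox6a2, Blnk, Spib, Ly6c2, Cd300c, Tcf4 and Ptprcap), with a median of -5.97. Because 3 genes had no count in either DC2 library, that median depends in part on how the fit treats 0, while the median over the 12 well-expressed members was -1.96. Tcf4, the factor that directs pDC identity, had 902 and 498 CPM in DC1b and 38.3 and 38.6 CPM in DC2 (log2 fold change -4.19 ± 0.38 (SE), edgeR adjusted p = 0.0382) and 18 and 22.9 CPM in DC1a. Runx2, a factor of pDC exit from marrow that overlaps Runx2os1, had 464 and 346 CPM in DC1b and 40.1 and 28.9 CPM in DC2. Irf7, the factor that amplifies interferon production, had 67.4 and 96.6 CPM in DC1b and 28.2 and 17.8 CPM in DC2. These factors were present in DC2 at a lower level, the last 2 without a call.

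Surface and cytoplasmic pDC genes ran the same way. Mctp2, a membrane protein with C2 domains, had 275 and 174 CPM in DC1b and no count in DC2. Its mean level in DC1b was 1549.5 times the higher of the 2 DC2 libraries' floors, a lower bound for the mean only. Siglech, the lectin Siglec-H, had 1019 and 1767 CPM in DC1b and 2.37 and 24 CPM in DC2, and Bst2, the antigen recognised by the pDC antibody PDCA-1, had 116 and 129.9 CPM in DC1b and 9.16 and 11.1 CPM in DC2. Ccr9, a gut-homing chemokine receptor, had 306 and 297 CPM in DC1b and 4.03 and 0.145 CPM in DC2. None of Siglech, Bst2 and Ccr9 passed the threshold in edgeR's test, although their levels did not overlap. Blnk, a signalling adaptor shared with B cells, had 341 and 454 CPM in DC1b and 0.631 and 0.145 CPM in DC2 (edgeR adjusted p = 0.0294), and Spib, a transcription factor of pDC and B cells, had 139 and 307 CPM in DC1b and 0.355 and 0.482 CPM in DC2 (edgeR adjusted p = 0.0235). Plac8, the member with the most reads, had 3999 and 6263 CPM in DC1b and 1654 and 1811 CPM in DC2. Summed over the list, levels were 14494 and 21267 CPM in the DC1b pools, 2314 and 2281 CPM in the DC2 pools and 1782 and 1785 CPM in the DC1a pools, so DC1b stood apart from both. B220-bearing cells were left out in the gating that the study shows, and pDC carry B220. The part of pDC in the differences of this and the other gene groups was not tested.

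TCF4 belongs to the E proteins, which bind E-boxes, and the 250 bases before each RefSeq start (GRCm38.p6) were searched on both strands for CAGGTG. A gene counted as holding the letters when any of its starts did, so genes with several starts had more windows. A RefSeq promoter was found for 26 of the 36 genes, and 10 of these (38.5%) held the letters, against 17.9% of the 9969 genes tested that had a promoter. The share was 18.7% among genes separated lower, 16.3% among those separated higher, 1 of 24 (4.17%) in the cDC1 list and 6 of 16 (37.5%) in the list of T-cell ligands, so a share of this size was found in both lists. These are descriptions of letters in a window, with no test and not a measure of binding. The promoters of 4 members whose levels did not overlap, of which Siglech did not pass the threshold, are shown 5′ to 3′ on the gene's strand because each held a single match, given in capitals as it reads on that strand. They lie at chr7:72306596-72306845 (minus strand), chr19:40994222-40994471 (minus strand), chr11:114960508-114960757 (minus strand) and chr7:55767934-55768183 (plus strand) in this order.
Mctp2: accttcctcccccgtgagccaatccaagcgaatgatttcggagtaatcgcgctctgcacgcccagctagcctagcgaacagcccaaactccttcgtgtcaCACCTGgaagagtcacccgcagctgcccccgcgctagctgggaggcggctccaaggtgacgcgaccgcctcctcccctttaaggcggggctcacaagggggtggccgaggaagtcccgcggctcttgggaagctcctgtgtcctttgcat
Blnk: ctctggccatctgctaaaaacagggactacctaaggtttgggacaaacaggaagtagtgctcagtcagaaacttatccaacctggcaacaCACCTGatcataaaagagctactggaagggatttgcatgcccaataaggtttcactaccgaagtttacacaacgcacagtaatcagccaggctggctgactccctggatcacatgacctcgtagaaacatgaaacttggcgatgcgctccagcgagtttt
Cd300c: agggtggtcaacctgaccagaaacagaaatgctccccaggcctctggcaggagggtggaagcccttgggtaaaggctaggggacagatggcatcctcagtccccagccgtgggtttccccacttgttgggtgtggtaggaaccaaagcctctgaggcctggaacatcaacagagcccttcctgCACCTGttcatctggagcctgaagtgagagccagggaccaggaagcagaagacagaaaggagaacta
Siglech: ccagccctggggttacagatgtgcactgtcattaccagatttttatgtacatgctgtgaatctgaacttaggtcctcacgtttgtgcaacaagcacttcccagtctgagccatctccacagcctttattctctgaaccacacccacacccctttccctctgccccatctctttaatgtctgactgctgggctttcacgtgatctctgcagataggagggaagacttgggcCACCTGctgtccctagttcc

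**Figure D3:**
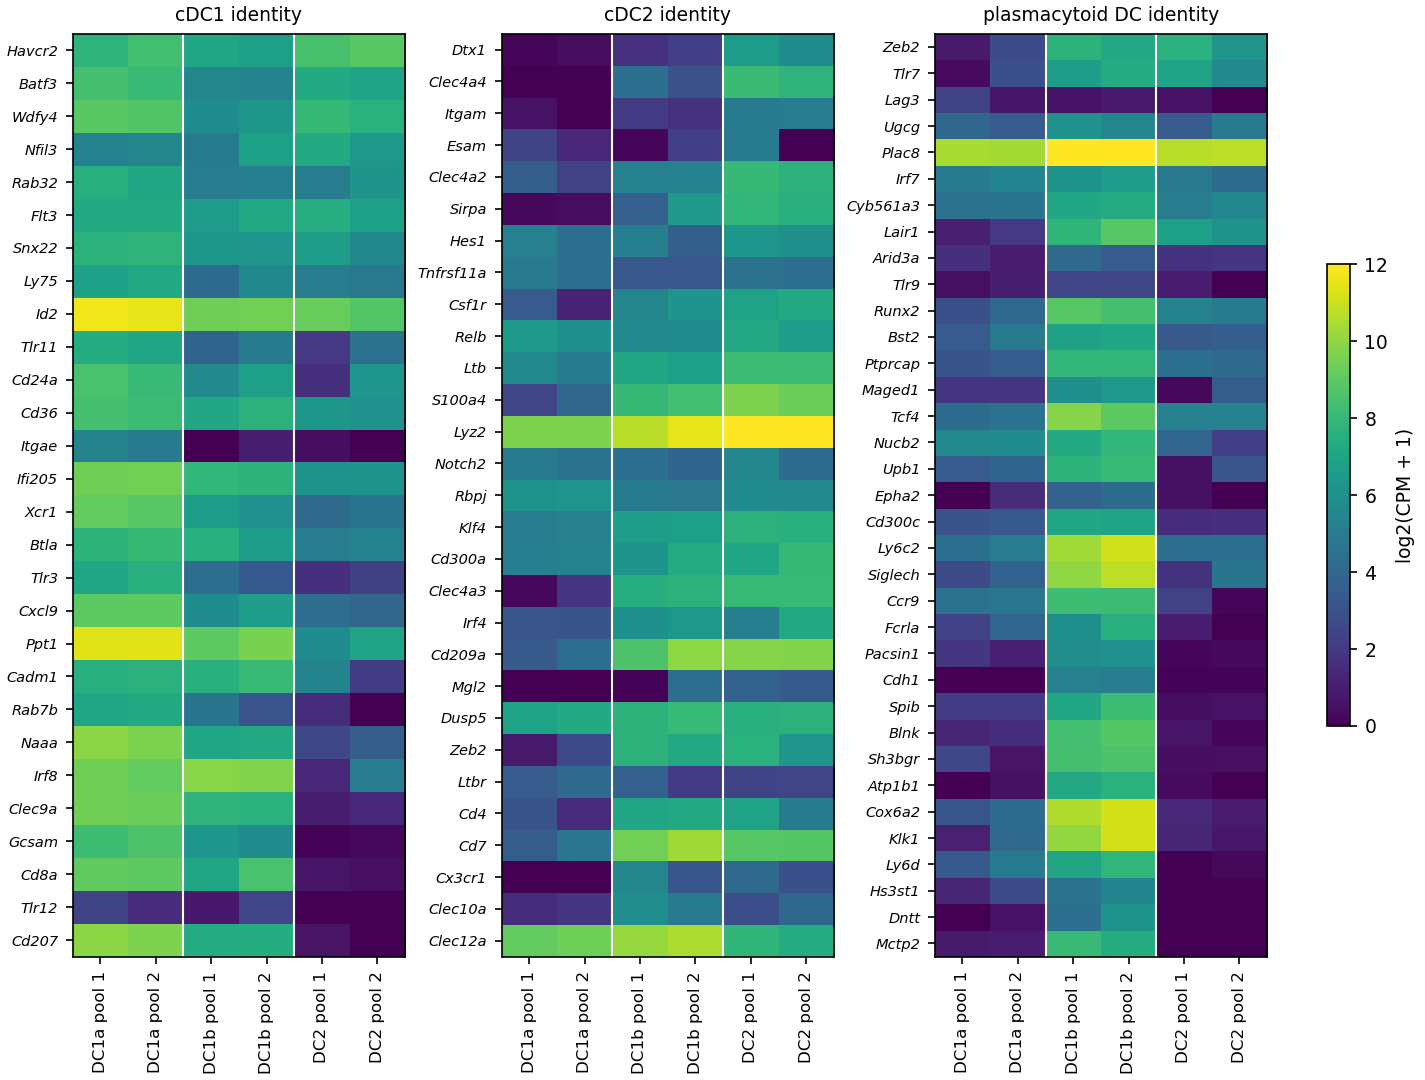
Log2(CPM + 1) in the 6 untreated libraries for the genes of the cDC1, cDC2 and pDC identity lists (1 pDC gene is not shown), each ordered by the log2 fold change of DC2 over DC1b; columns are the DC1a, DC1b and DC2 pools and colour gives the level. Most rows of the pDC panel are brighter in the DC1b columns than in the DC1a and DC2 columns, with summed levels of 14494 and 21267 CPM in DC1b against 2314 and 2281 CPM in DC2.

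Immediate early genes, which cells switch on within minutes of stimulation, were higher in DC2. Of 26 genes, 24 had a fitted log2 fold change above 0, 15 were higher and 0 lower at an unadjusted p under 0.05, and 12 were separated higher, with a median of 1.28. Egr1 was the single call of the list. Its relative Egr2 had 7.33 and 12.5 CPM in DC1b and 66.7 and 138 CPM in DC2. Atf3, a stress-induced factor, had 171 and 324 CPM in DC1b and 1488 and 1770.1 CPM in DC2 (log2 fold change 2.72 ± 0.36 (SE), edgeR adjusted p = 0.0668). Nr4a1, an orphan nuclear receptor, had 209.6 and 261 CPM in DC1b and 824 and 1071 CPM in DC2 and Nr4a2 had 45.4 and 92.7 CPM in DC1b and 280.1 and 367 CPM in DC2. In each of these the DC2 libraries lay at least 3 times above the DC1b libraries.

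Feedback inhibitors in the list ran the same way. Dusp1, a phosphatase that switches off MAP kinases, had 348 and 521 CPM in DC1b and 1470.4 and 2176 CPM in DC2, and Dusp2 had 59.9 and 44.6 CPM in DC1b and 202 and 189 CPM in DC2. Btg2, an antiproliferative gene, had 349 and 470.0 CPM in DC1b and 1129 and 1601 CPM in DC2. Fos, a subunit of AP-1 with the most reads in the list, had 897 and 1088 CPM in DC1b and 1649 and 1802 CPM in DC2 and was less than 2 times apart between the nearest libraries (log2 fold change 0.80 ± 0.18 (SE), edgeR adjusted p = 0.162). Junb, Ier2, Ier3 and Fosl2 were also separated higher. DC1a cells had 363 and 407 CPM of Dusp1, 328 and 397 CPM of Atf3 and 216 and 228 CPM of Nr4a1.

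The cAMP response element TGACGTCA was found for 3 of 22 immediate early genes with a promoter (13.6%), Btg2, Dusp1 and Maff, against 3.02% of the genes tested that had one. The NF-kB motif (GGG, any 2 bases, then TTTCC) was found for 7 of 28 NF-kB pathway genes with a promoter (25%) against 1.75%. Again any start of a gene could hold the match, and the list was made from known parts and targets of the pathway. Matches of different motifs shared a base in 6 genes. The promoters of Btg2 (chr1:134079156-134079405 (minus strand)) and Dusp1 (chr17:26508473-26508722 (minus strand)) are given with the response element in capitals, and those of Rel (chr11:23770970-23771219 (minus strand)) and Nfkbia (chr12:55492648-55492897 (minus strand)) with the NF-kB match in capitals. Nfkbia was chosen after its values were seen.
Btg2: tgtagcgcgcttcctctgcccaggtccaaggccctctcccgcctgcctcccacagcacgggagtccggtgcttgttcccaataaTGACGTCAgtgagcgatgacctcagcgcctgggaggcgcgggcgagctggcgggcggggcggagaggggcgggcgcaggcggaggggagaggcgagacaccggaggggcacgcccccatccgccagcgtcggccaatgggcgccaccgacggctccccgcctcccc
Dusp1: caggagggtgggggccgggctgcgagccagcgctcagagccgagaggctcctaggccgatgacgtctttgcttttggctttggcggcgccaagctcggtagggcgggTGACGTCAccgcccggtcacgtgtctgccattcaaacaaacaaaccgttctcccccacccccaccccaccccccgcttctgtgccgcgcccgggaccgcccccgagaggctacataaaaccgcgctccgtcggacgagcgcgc
Rel: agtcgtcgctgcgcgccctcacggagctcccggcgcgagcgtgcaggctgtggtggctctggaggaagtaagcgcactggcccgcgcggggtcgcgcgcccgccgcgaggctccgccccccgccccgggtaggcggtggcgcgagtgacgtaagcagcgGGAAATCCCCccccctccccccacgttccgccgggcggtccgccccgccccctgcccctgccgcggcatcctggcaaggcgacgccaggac
Nfkbia: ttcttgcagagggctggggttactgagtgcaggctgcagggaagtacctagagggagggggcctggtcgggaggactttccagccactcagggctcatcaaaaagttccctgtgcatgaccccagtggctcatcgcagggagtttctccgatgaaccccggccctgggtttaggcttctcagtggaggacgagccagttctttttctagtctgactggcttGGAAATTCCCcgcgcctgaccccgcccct

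NF-kB is the factor family through which danger signals turn on cytokine and costimulatory genes. Of 35 genes of its pathway and feedback, 15 were higher and 2 lower in DC2 by the unadjusted p, 8 were separated higher and 1 lower, and 0 passed the threshold in edgeR's test (median 0.81). The subunits split in direction. Rel had 313 and 202 CPM in DC1b and 1041 and 1240.3 CPM in DC2 (log2 fold change 2.15 ± 0.28 (SE), edgeR adjusted p = 0.0615), and Rela had 41.8 and 47.9 CPM in DC1b and 9.83 and 11.4 CPM in DC2 (log2 fold change -2.08 ± 0.45 (SE), edgeR adjusted p = 0.151). Among inhibitors, Nfkbid had 68.1 and 70.3 CPM in DC1b and 300.5 and 296 CPM in DC2, Nfkbie had 99.2 and 40.5 CPM in DC1b and 207 and 240.5 CPM in DC2 and Nfkbia had 572 and 541 CPM in DC1b and 1131 and 1241 CPM in DC2. Malt1, a protease that passes signals to NF-kB, had 43.4 and 62.8 CPM in DC1b and 167 and 325 CPM in DC2, and the adaptor Traf1 had 164 and 76.1 CPM in DC1b and 494 and 589.8 CPM in DC2. Cd83, a surface protein of mature dendritic cells, had 259 and 574 CPM in DC1b and 1497 and 2760.4 CPM in DC2. Bcl2a1b, an anti-apoptotic target with near-identical copies, had 561 and 591 CPM in DC1b and 1449 and 1351 CPM in DC2.

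T-cell ligands on dendritic cells set whether a T cell is activated or held back. Of 21 T-cell ligands tested, Cd86 and Cd274 rose, 7 were higher and 2 lower at an unadjusted p under 0.05, and 4 were separated higher and 0 lower. The median log2 fold change was 1.12, and 0.76 over the 12 well-expressed members. Cd80, which shares its receptors with Cd86, had 16.6 and 21.1 CPM in DC1b and 177 and 139 CPM in DC2 (log2 fold change 3.07 ± 0.37 (SE), edgeR adjusted p = 0.0599). Cd40 was the other separated member, and Cd244a, the receptor 2B4, had 112 and 54.2 CPM in DC1b and 219 and 251 CPM in DC2. Cd86, a costimulatory ligand, and Cd274, the inhibitory ligand PD-L1, stood higher in the same libraries. Cd48, the member with the most reads, had 774 and 1223 CPM in DC1b and 720.1 and 607 CPM in DC2, lower in both DC2 libraries.

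Among 18 cytokine genes tested, 4 were higher and 1 lower at an unadjusted p under 0.05. Il1b, the inflammatory cytokine interleukin-1 beta, had 1132 and 2003 CPM in DC1b and 5478 and 7495 CPM in DC2 (log2 fold change 2.05 ± 0.35 (SE), edgeR adjusted p = 0.0993). Tnf had 14.8 and 7.38 CPM in DC1b and 102 and 34.1 CPM in DC2 and Ltb, a lymphotoxin subunit, had 147 and 108 CPM in DC1b and 299.8 and 301 CPM in DC2. The 3 were separated higher. Il12a, a subunit of interleukin-12, ran the other way with 108 and 87.2 CPM in DC1b and 0.0789 and 0 CPM in DC2 and the median of the list was 0.75.

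The chemokines were mixed, with 2 of 17 separated higher, 1 lower and a median of 0.90. Ccl3 had 265 and 370.5 CPM in DC1b and 1284 and 1182 CPM in DC2 and Cxcl2 had 15 and 16.2 CPM in DC1b and 45.2 and 95.5 CPM in DC2, both ligands that draw in myeloid cells. Cxcl9, a ligand that draws in activated T cells, had 56.9 and 105 CPM in DC1b and 18.3 and 14.6 CPM in DC2. Of 18 chemokine and migration receptors, 4 were lower and 1 higher at an unadjusted p under 0.05 (median -1.37, but -0.55 over the 8 well-expressed ones). Ccr7, which guides dendritic cells to lymph nodes, had 112 and 229 CPM in DC1b and 475 and 465 CPM in DC2, and Ccr2, which guides monocytes out of the marrow, had 119 and 121 CPM in DC1b and 48.2 and 34.6 CPM in DC2. Gpr183, which positions cDC2 in the spleen, had 315 and 304 CPM in DC1b and 383 and 504 CPM in DC2.

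Sensing receptors leaned upwards in DC2 without a call. Of 38 pattern recognition receptors, 10 were higher and 3 lower at an unadjusted p under 0.05 and 3 were separated higher (median 0.86). Over the 19 well-expressed ones the median was 0.47. Cd180, a relative of Toll-like receptors, had 118 and 110.0 CPM in DC1b and 413 and 383 CPM in DC2, Aim2, a sensor of cytosolic DNA, had 28.6 and 12.9 CPM in DC1b and 85.7 and 108 CPM in DC2, and Tlr6 had 9.85 and 5.4 CPM in DC1b and 21.7 and 52.9 CPM in DC2. Cd209d, a lectin, had 616 and 1054 CPM in DC1b and 29.5 and 0.724 CPM in DC2 and so lay lower in both DC2 libraries. Of 29 Fc and paired receptors, 8 were higher and 4 lower, and 7 were separated higher (median 0.70). Those 7 were Sirpa, Clec4a2, Clec4a4, Pirb, Sirpb1a, Siglecg and Fcgrt. Pirb, an inhibitory receptor for MHC class I, had 40 and 45 CPM in DC1b and 143 and 183 CPM in DC2, and Sirpb1a, of the same family as Sirpa, had 75.7 and 87.4 CPM in DC1b and 433 and 441 CPM in DC2. Tyrobp, an adaptor of activating receptors, had 5165 and 8395 CPM in DC1b and 2927 and 2378 CPM in DC2, lower in both DC2 pools. Cd300c was the list's call, downwards.

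Of 27 integrin and adhesion genes, Itgax was the call, 3 were higher and 4 lower at an unadjusted p under 0.05, and the median was 0.16. By the same p, 6.73% of all genes tested were higher and 7.82% lower. Selplg, the ligand of P-selectin, had 311 and 598 CPM in DC1b and 178 and 175 CPM in DC2, and Itga4 had 466 and 289.7 CPM in DC1b and 704 and 607 CPM in DC2. Of 11 matrix metalloproteinases and relatives tested, Mmp12, Adam23 and Adam8 were separated higher (median 0.92). Adam23 had 36.5 and 43.9 CPM in DC1b and 157 and 252 CPM in DC2 and Adam8 had 10.5 and 9.43 CPM in DC1b and 23.2 and 49.9 CPM in DC2. Adam17, which sheds TNF, had 105 and 126 CPM in DC1b and 216 and 222 CPM in DC2.

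Genes of MHC class II presentation, which loads peptides for CD4 T cells, were higher in 9 and lower in 1 of 19 at an unadjusted p under 0.05, with a median of 0.47. Ctsl, which cuts the invariant chain in thymic epithelium, was the only call and the only separated member downwards. Ciita, the master activator of the class II genes, had 44.7 and 80.9 CPM in DC1b and 166 and 307 CPM in DC2. H2-Eb1, a class II beta chain, had 3810.1 and 2968 CPM in DC1b and 8686 and 9128 CPM in DC2 (log2 fold change 1.39 ± 0.17 (SE), edgeR adjusted p = 0.0614), and H2-Ab1 had 5449 and 4082 CPM in DC1b and 9434 and 10008 CPM in DC2. The alpha chain H2-Aa, with 6465 and 11669 CPM in DC1b and 11298 and 10988 CPM in DC2, overlapped between the populations. Cd74, the invariant chain and the member with the most reads, had 16154 and 25678 CPM in DC1b and 33746 and 35731 CPM in DC2. H2-Oa and H2-Ob encode the chains of a protein that holds back peptide loading. H2-Oa had 229 and 331 CPM in DC1b and 878 and 805 CPM in DC2, and H2-Ob had 17.6 and 102 CPM in DC1b and 239 and 303 CPM in DC2. March1, a ligase that removes class II from the surface, had 41.2 and 38.7 CPM in DC1b and 99.2 and 101 CPM in DC2. MHC genes are polymorphic, and reads of this strain were aligned to the reference of another; the part of this in their levels was not tested.

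The 26 genes of MHC class I and CD1d presentation had a median near that of all genes (-0.04), with 1 higher and 3 lower at an unadjusted p under 0.05 and none separated (0 members). H2-D1, a class I heavy chain, had 1019.6 and 1203 CPM in DC1b and 1487 and 1614 CPM in DC2. Against 6.73% and 7.82% of all genes tested, these shares do not set the list apart.

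Interferon-stimulated genes were mixed. Of 36 type I genes, 5 were higher and 6 lower at an unadjusted p under 0.05 (median 0.27, but -0.29 over the 19 well-expressed ones), and the separated members were Rtp4 upwards, with 5.67 and 17.5 CPM in DC1b and 137 and 123 CPM in DC2, and Bst2, Irf7 and Trim30a downwards. Trim30a had 246 and 219.8 CPM in DC1b and 40.8 and 79.3 CPM in DC2. Among members with many reads, Ifi27l2a had 1096 and 1286 CPM in DC1b and 691 and 538 CPM in DC2 and Ifitm3 had 717 and 1021 CPM in DC1b and 1998 and 1464 CPM in DC2, in opposite directions. Of 23 genes induced by interferon gamma, 6 were higher and 3 lower (median -0.22, but 0.77 over the 14 well-expressed ones), with Gbp8 (71.7 and 51.7 CPM in DC1b and 198 and 198 CPM in DC2) and Tgtp2 (43.8 and 35.1 CPM in DC1b and 92.9 and 162 CPM in DC2), both GTPases, separated higher and the chemokine gene Cxcl9 separated lower. Ifngr1, a chain of the receptor, had 171 and 167 CPM in DC1b and 348 and 337 CPM in DC2.

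The ER folding and secretory list ran downwards in DC2. Of 37 genes, 30 had a fitted log2 fold change below 0, 9 were lower and 1 higher at an unadjusted p under 0.05, 4 were separated lower and 1 higher, and 0 passed the threshold in edgeR's test (median -0.48). Sec61a1 and Sec61g encode subunits of the channel through which proteins enter the ER. Sec61a1 had 293 and 332 CPM in DC1b and 94.4 and 30 CPM in DC2, and Sec61g had 325 and 318 CPM in DC1b and 144 and 107 CPM in DC2. Tram1, a protein beside that channel, had 179 and 212 CPM in DC1b and 64.8 and 62.9 CPM in DC2 (log2 fold change -1.61 ± 0.27 (SE), edgeR adjusted p = 0.0951). Manf had 297 and 350.1 CPM in DC1b and 130.5 and 80.6 CPM in DC2. Hspa5, the ER chaperone BiP, had 409 and 377 CPM in DC1b and 458 and 574 CPM in DC2 and did not share the direction. The summed pDC-list levels given above moved with these genes, and their part in this result was not tested.

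Lysosomal genes were called in both directions, Abcg3 upwards and Ctsl downwards, with 3 of 33 higher and 8 lower at an unadjusted p under 0.05 (median -0.23). Ctsb, cathepsin B, had 935 and 1743 CPM in DC1b and 592 and 518 CPM in DC2. Cell cycle genes had a median of -0.01 over 35 genes, 4 higher and 1 lower at an unadjusted p under 0.05. Ccnd1 and Ccnd2, D-type cyclins, were the 2 of 19 well-expressed members separated higher, against 5.38% of all well-expressed genes. Ccnd1 had 38.4 and 47.5 CPM in DC1b and 118 and 121 CPM in DC2, and Ccnd2 had 13.4 and 35.3 CPM in DC1b and 169.9 and 78.3 CPM in DC2. Mki67, a marker of dividing cells, had 59.2 and 61.5 CPM in DC1b and 166 and 114 CPM in DC2.

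Markers of cells outside the gates were followed in the same way. Of 13 B-cell markers tested, 1 was higher and 3 lower at an unadjusted p under 0.05 (median -1.65). Over all 15 listed, the summed level was 6373 and 4040.1 CPM in DC1b and 1265 and 364 CPM in DC2. Igkc had 5266 and 2529.9 CPM in DC1b and 819 and 38.4 CPM in DC2 and Ighm 961 and 1293 CPM in DC1b and 274 and 232 CPM in DC2. The 20 monocyte and macrophage markers listed summed to 2412 and 4228 CPM in DC1b and 2239 and 2336 CPM in DC2, with 2 of 17 tested higher and 2 lower (median 0.45). Fcgr1, Cd5l and F13a1 were too low to be tested. Within these sums Ly6c2, also in the pDC list, had 1301 and 2233 CPM in DC1b and 19 and 19.9 CPM in DC2. Nr4a1, also an immediate early gene, had 209.6 and 261 CPM in DC1b and 824 and 1071 CPM in DC2. T-cell markers summed to 59.6 and 80.7 CPM and 30.3 and 15.1 CPM (median -2.62 over 8 genes), and NK-cell markers to 529.9 and 762 CPM and 166 and 136 CPM (median 0.19 over 4 genes and -2.10 over the 2 well-expressed ones, Klrk1 and Klrd1, which were separated lower). The 4 neutrophil markers tested had a median of -0.90 and 0 of them an unadjusted p under 0.05. Haemoglobin genes set pool 1 of DC2 and of DC1a apart. The 14 erythroid and platelet markers listed summed to 2223 and 82.7 CPM in the DC2 pools, 1769 and 155 CPM in the DC1a pools and 90.6 and 126 CPM in the DC1b pools. The median of 3.62 for DC2 over DC1b, taken over the 7 tested, thus rests on DC2 pool 1. The part of these cells in the results was not tested.

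**Figure D4:**
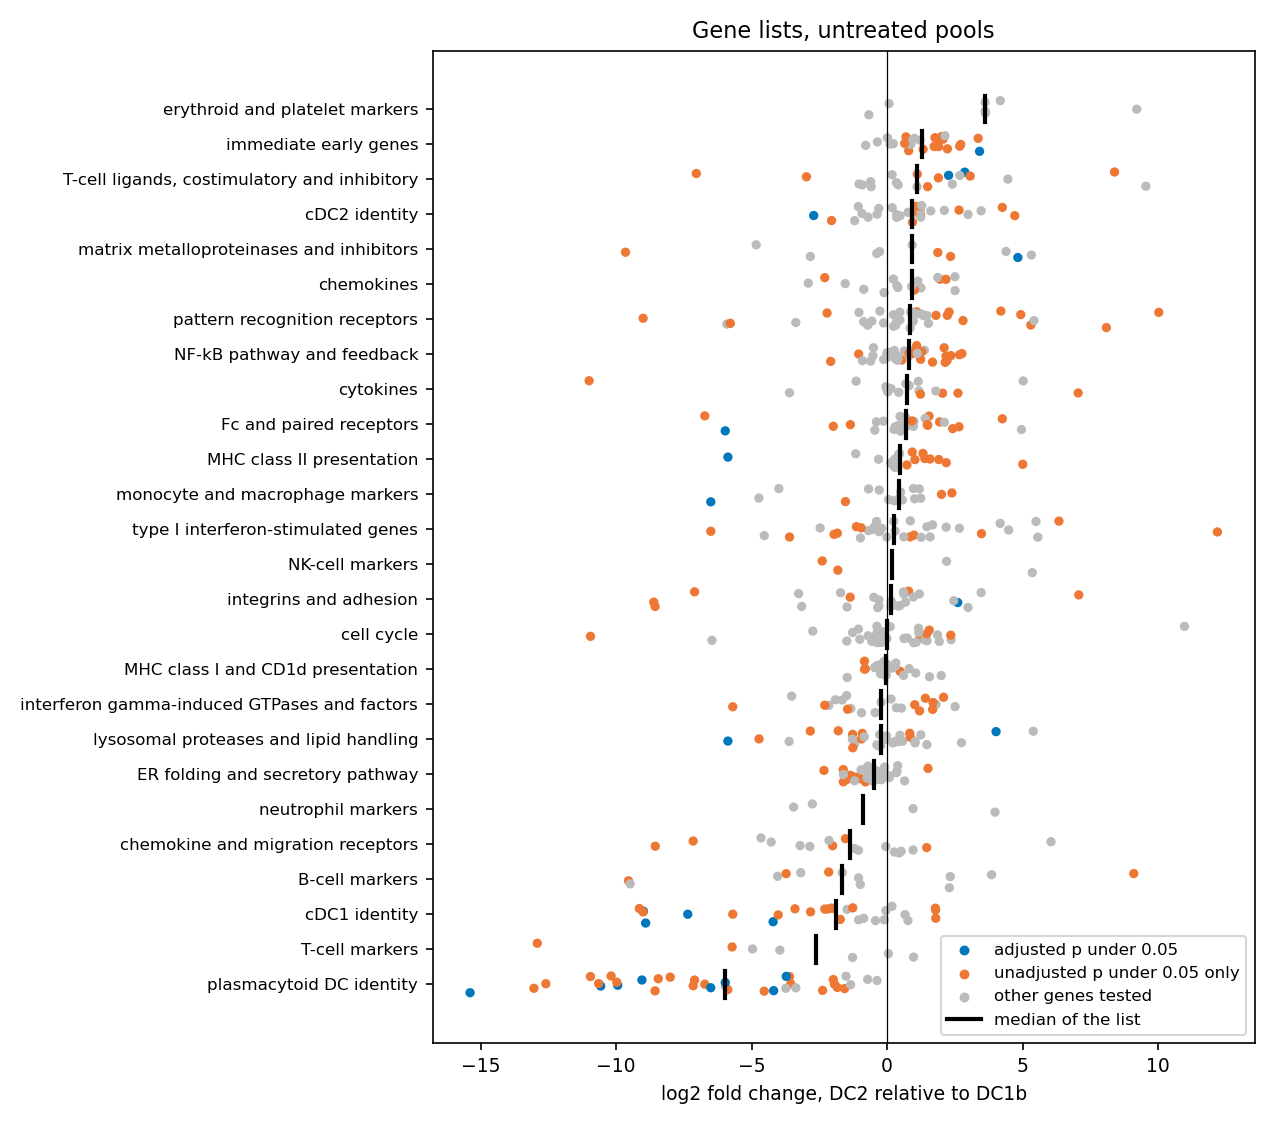
Log2 fold change of DC2 over DC1b for every tested gene of the 26 lists, ordered by the list median (bars); the zero line stands for equal levels. The pDC list has the lowest median at -5.97 and the immediate early list lies at 1.28, with the erythroid list at 3.62 resting on DC2 pool 1.

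The pools of mice labelled TLI share no library with this contrast and gave another view of the same genes, with CPM scaled over all 23 libraries. There were 4 DC1b pools and 3 DC2 pools, a DC2 library of TLI pool 2 was not analysed here, and pools 3 and 4 form a second batch, which entered the fit of all 23 libraries as a term. Before their values are read, the labels need a caution. Cd8a had 336, 352, 85.5 and 0.363 CPM in the libraries labelled TLI DC1b pools 1 to 4, the last of which was as low as the 0.986, 0.546 and 0.251 CPM of the libraries labelled TLI DC2. Sirpa had 162, 145, 5.51 and 7.26 CPM in the libraries labelled TLI DC1b and 34, 8.79 and 282 CPM in those labelled TLI DC2 (pools 1, 3 and 4), so the ranges overlapped and did not follow the CD172 gates. Ranges with each of these 7 libraries left out in turn are therefore given beside the counts, list medians and fitted values, an alternative chosen after seeing the data. They do not cover the case of several wrong labels at once.

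In the libraries labelled TLI, DC2 and DC1b differed at 42 of 19597 genes (0.214%), and the difference between the TLI and the untreated contrast was past the threshold at 24 (0.122%), from 5 without untreated DC1b pool 2 to 54 without TLI DC2 pool 1. In the first batch alone that difference was past the threshold at 7 genes, 2 of them among the 24. Of the 12 genes that rose in untreated DC2, 10 had the same sign under TLI (9 to 11 when a TLI library was left out), all but Cd274 and Cd86, and 0 were called there. Of the 33 that fell, 25 had the same sign (25 to 28), and 5 were called. These genes were chosen by the untreated contrast. Their median log2 fold changes under TLI were smaller, 0.59 against 2.74 for the first group and -1.03 against -6.31 for the second. Of the separated genes, 243 of 358 higher and 118 of 198 lower in untreated DC2 had the same sign under TLI. Over all 19597 genes, 9303 had a log2 fold change above 0 there. Itgax had 128, 101, 224 and 206 CPM in TLI DC1b and 214, 259.7 and 296 CPM in TLI DC2, so its ranges overlapped. Mmp12 had 62.6, 42.4, 8.42 and 42.7 CPM in TLI DC1b and 376, 159 and 203 CPM in TLI DC2, which did not overlap, with a log2 fold change of 3.01 (2.70 to 4.23 with a TLI library left out) that missed the threshold (edgeR adjusted p = 0.395). Cd86 overlapped, with 385, 295, 231 and 131 CPM against 443, 122 and 161 CPM.

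Downwards, Clec9a had 213, 148, 194 and 108 CPM in TLI DC1b and 36, 25.9 and 37.6 CPM in TLI DC2, a log2 fold change of -2.37 (-2.60 to -2.16 with a library left out, edgeR adjusted p = 0.00195). Xcr1 had 165, 175, 364 and 292 CPM and 4.14, 18.5 and 34.1 CPM (log2 fold change -3.85, -4.51 to -3.25 with a library left out, edgeR adjusted p = 0.005). Neither receptor overlapped between the gates there. The pDC genes Tcf4 and Siglech were at lower levels in TLI DC1b than in untreated DC1b. Tcf4 had 71.7, 47.6, 33.7 and 25.9 CPM in TLI DC1b against 19.5, 40.1 and 85 CPM in TLI DC2 and overlapped, and Siglech had 33.4, 32.1, 10.3 and 0.297 CPM against 0.631, 0.115 and 0.126 CPM. Lgals1 had 712, 443, 347 and 559 CPM and 472, 1470.2 and 1185 CPM, a log2 fold change of 0.70 (0.38 to 1.03) that missed the threshold (edgeR adjusted p = 0.506), opposite in sign to the untreated pools.

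Over whole lists, 27 of 28 cDC1 identity genes had a log2 fold change below 0 under TLI, against 22 in the untreated fit of 6 libraries. Their median was -2.45 under TLI (-2.59 to -2.24 with a library left out) and -1.84 for the untreated pools in the fit of 23 libraries. The pDC median was -1.47 (-2.34 to -1.12) against -5.95. The immediate early median was 0.04 (-0.08 to 0.20) against 1.304, and the T-cell ligand median was 0.08 (0.00 to 0.57) against 1.15. That of MHC class II was 0.59 (0.40 to 0.73) against 0.50, and that of the cDC2 list 0.59 (0.30 to 0.76) against 0.97. DC3 cells of the untreated pools, the remaining gate, had 215 and 252 CPM of Clec9a, 800.1 and 815 CPM of Irf8, 38.2 and 31.2 CPM of Siglech, 123 and 201 CPM of Itgax and 0.587 and 3.32 CPM of Mmp12.

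**Figure D5:**
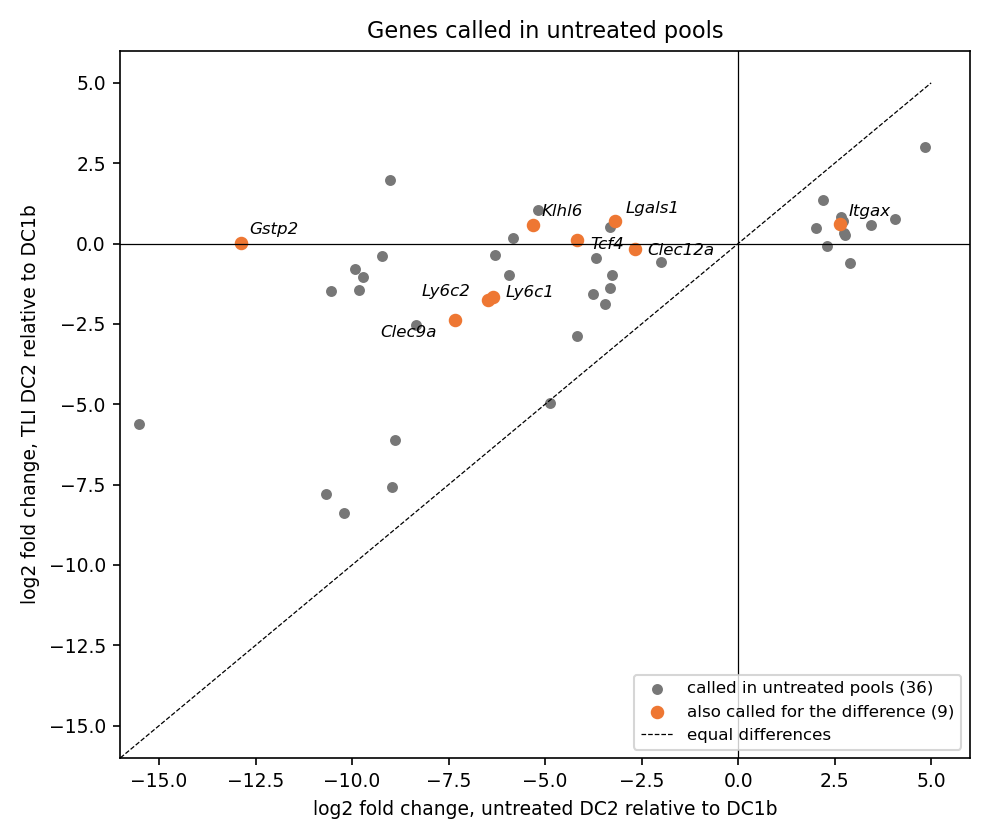
Log2 fold change of DC2 over DC1b in the libraries labelled TLI (vertical) against untreated pools (horizontal), both from the fit of 23 libraries, for the 45 genes called in untreated pools; the dashed line marks equal differences. The 9 orange points are called for the difference itself, among them Itgax (0.60 against 2.64) and Lgals1 (0.70 against -3.18).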

How the data were processed

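Sorted spleen populations were sequenced as bulk RNA. The authors deposited estimated counts per gene, made with StringTie after trimming with Trimmomatic and alignment to GRCm38 with HISAT2, in whole numbers and without scaling for depth or length. The submitters' processing notes also name DESeq2. Plain read counts had been assumed in the design; the deposited estimated counts went into the test unchanged. The reads come from Balb/C mice and the reference from another strain, and strand is not stated, so genes that overlap or have near-identical copies are uncertain. The study's methods call the libraries of a population biological replicates, without saying how mice were divided between pools, so p-values measure the spread between these libraries.

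Counts were analysed in R 4.3.3 with edgeR 4.0.16 (TMM, filterByExpr, quasi-likelihood test of DC2 minus DC1b in the 6 untreated libraries of DC1a, DC1b and DC2, Benjamini-Hochberg adjustment, threshold 0.05). This fit of the 6 libraries, but not the fit of 23 libraries or DESeq2, was tried on simulated data. DESeq2 1.42.0 served as an alternative. SEs are the log2 fold change over the square root of the F statistic. The TLI contrast was taken from a fit of all 23 libraries with batch as a term. Symbols and positions come from GENCODE M21 (47310 of 47729 identifiers) and promoters from RefSeq on GRCm38.p6 (9969 of 15782 symbols). Named genes are those past the threshold, the 15 widest separations in each direction, list members that were called, separated or among the 3 with the highest mean CPM over the 4 libraries, and receptors and factors that check the labels; where few in a group matter, only those are described, and a few genes that the rule or the lists name are not reported here. Members and lists were chosen with earlier results of these data known. Pool numbers in the labels pair the populations, and residuals of DC1b and DC2 libraries with the same number correlated across genes at -0.00602.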

Additional observations from a re-analysis of the deposited data

Results flagged for a closer look

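Of the genes named above, 10 differed between the TLI and the untreated pools in their DC2 to DC1b contrast, by edgeR's quasi-likelihood test of that difference with Benjamini-Hochberg adjustment in the fit of 23 libraries. The values are the log2 fold change under TLI minus that in untreated pools. Itgax was the gene higher in untreated DC2 among them, at -2.04 ± 0.38 (SE) (adjusted p = 0.0475), since its log2 fold change was 2.64 in untreated and 0.60 in TLI pools. The receptors lower in untreated DC2 had 4.95 ± 0.49 (SE) for Clec9a (adjusted p = 0.000126) and 2.51 ± 0.36 (SE) for Clec12a (adjusted p = 0.0116). Clec9a stayed lower in TLI DC2, while Clec12a had a log2 fold change of -0.16 there.

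Genes with high levels in untreated DC1b made up most of the rest. The difference was 4.68 ± 0.79 (SE) for Ly6c1, 4.71 ± 0.81 (SE) for Ly6c2 and 4.27 ± 0.80 (SE) for Tcf4 (adjusted p = 0.0297, 0.0303 and 0.0475). Lgals1 had opposite signs, with -3.18 in untreated and 0.70 in TLI pools (not past the threshold there) and a difference of 3.88 ± 0.60 (SE) (adjusted p = 0.0188). Trim30a, an interferon-induced gene, did the same with -1.93 and 0.39 (not past the threshold there), a difference of 2.32 ± 0.39 (SE) (adjusted p = 0.0301). Klhl6 had 5.90 ± 0.85 (SE) (adjusted p = 0.0116).

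Gstp2 had the widest difference, 12.90 ± 0.81 (SE) (adjusted p = 6.72e-07). It had no count in the 2 untreated DC2 libraries, so that value depends on how the fit treats 0, and 36.1, 58.8, 36.4 and 29.8 CPM in TLI DC1b and 28.8, 43.7 and 44.1 CPM in TLI DC2. The libraries labelled TLI did not all follow their CD8 and CD172 gates, and the number of genes past the threshold ran from 5 to 54 when a library was left out.

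With each of the 7 TLI libraries of DC2 and DC1b left out in turn, a choice made after seeing the data, the difference stayed past the threshold in all 7 fits for Clec9a (4.73 to 5.16), Clec12a (2.30 to 2.69), Klhl6 (5.23 to 6.35) and Gstp2 (12.76 to 13.27). It did so in 6 for Lgals1 (3.56 to 4.26), 4 for Trim30a (2.19 to 2.48), 3 for Ly6c1 (4.50 to 4.98), 2 for Ly6c2 (4.46 to 5.05), 2 for Tcf4 (3.61 to 4.88) and 0 for Itgax (-2.09 to -1.93). These genes were chosen by the fit of all 23 libraries, and the sign of each difference held in all 7 fits. Leaving out 1 library at a time does not cover several wrong labels at once. The untreated side, with 2 pools a population, stayed whole in these 7 fits, so they do not show how far each gene depends on it.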

How the results depend on the processing

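The count of 45 genes depended on the fit and the separations less so. DESeq2's Wald test called 1636 genes (759 higher and 877 lower), among them each of the 45, and no filter on low counts gave 248 genes, also with all 45. At least 10 counts in every library gave 217, and at least 5 CPM in each DC2 and DC1b library gave 242, of which 147 were higher and 95 lower, with the 26 well-expressed calls among them. A fit of the 4 libraries alone gave 0 (1944 at an unadjusted p under 0.05), a fit of 8 untreated libraries 85, and a fit of all 23 libraries 78, with 21 of the 45. The pool as a replicate block left 0 genes past the threshold. RLE size factors (46) and robust estimation (47) stayed close to the main count. Leaving out each library in turn gave 0 to 6, where the lone library of a population is assumed to vary like the others; 6 remained without DC1b replicate 1 and 0 without each of the other 5.

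The 556 separated genes became 1133 at 1.5 times and 204 at 3 times, and 1174 to 1322 with a library left out, since fewer libraries then have to meet the rule. Another minimum level gave 417 to 759, and scaling by RLE or by library totals gave 561 and 546. The 24 genes whose contrast differed between TLI and untreated pools became 775 with DESeq2 (among them all 24). The pool as a replicate block gave 13 genes, of which 12 were among the 24, and batch 1 alone gave 7, of which 2 were. With a library left out the count ran from 5 (without untreated DC1b replicate 2) to 54 (without TLI DC2 replicate 1). Apart from construction, the cause of these shifts was not tested.

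Direction held for nearly every named gene, and 7 of their values did not keep their sign, all for genes that were not called. Among these the value for Timd4 was 0 and so not a reversal. Ly75 turned to 0.048 with the replicate block. With a library left out, Ly75 ran from -0.66 to 0.79, Irf4 from -1.11 to 1.06, Timd4 from 0 to 10.22, Itgae from -6.63 to 5.14 and H2-Aa from -0.079 to 0.79. Genes that were not called are not shown to be equal. With 3 counts as the floor, levels under 0.156 CPM of the library total, before TMM scaling, lay below the floor in the shallowest library.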
